A study of Rattus norvegicus with 12 samples.

Results

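The 9 genes described here are members and early targets of the transforming growth factor beta (TGF-beta) pathway. They are the ligands *Tgfb1*, *Tgfb2* and *Tgfb3*, the activin subunit gene *Inhba*, the receptors *Tgfbr1* and *Tgfbr2*, the signal transducer *Smad3* and the inhibitory SMADs *Smad6* and *Smad7*. They were chosen by name, and a probe was assigned to a gene where its RefSeq accession, without version, belonged to that rat gene. They are 9 of the 16581 genes that could be named on the array. All 9 were among the 10741 genes with a tested probe, and 13 of their 14 probes were tested.

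TGF-beta ligands are secreted in a latent form and, once released, join a type II to a type I receptor kinase, which phosphorylates SMAD2 and SMAD3. These bind SMAD4 and enter the nucleus, where they switch genes on or off. Among the genes switched on is *Smad7*, whose product blocks the receptors and so limits the signal. In skeletal muscle, TGF-beta and activins are known to hold back the differentiation of myoblasts, and TGF-beta drives the deposition of extracellular matrix.

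RNA was measured in myotubes of the rat skeletal muscle line L6, formed over 6 days in differentiation medium according to the labels, which differ by a day from the published description. They received GR24, pinosylvin or resveratrol, each at 60 µM in DMSO, or DMSO alone as the control, for 24 h. Each of the 4 groups had 3 arrays, 1 from each of 3 independent experiments on a single batch of cells. GR24 is a synthetic analog of the strigolactones, a class of plant hormones, while pinosylvin and resveratrol are plant stilbenes, of which resveratrol carries a further hydroxyl group. The model is 1 cell line at 1 dose and 1 time point, and neither ligand release nor SMAD phosphorylation was measured. P-values measure the spread between experiments within groups on these cells. Same-numbered replicates were paired only where a replicate block is named. The replicates 1 and 2 of every group shared 1 slide and the replicates 3 another, and each group had its own column on both slides, so that group and column cannot be told apart.

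GR24 moved most of the 9 genes, and pinosylvin and resveratrol fewer. Levels are given as log2 of the signal relative to the 75th percentile of the array, and a gene was called changed at an adjusted p under 0.05 in limma. With GR24, 2 of the 9 genes were higher and 6 lower than in the control, beside 31.5% of the 24279 tested probes higher and 25.5% lower. The median log2 difference was −0.24 over the 9 genes, by their brightest probes, and 0.03 over all tested probes. The median over the 9 genes turned to 0.14, the value of *Tgfb1*, when the tested probes of a gene were averaged. With the percentile taken over all spots, an alternative chosen after seeing the data, the shares of all tested probes with GR24 became 38.0% and 22.1%. Their median was then 0.13, and that over the 9 genes −0.14. With pinosylvin, 3 were higher and 1 lower, where 8.28% of all tested probes were higher and 8.27% lower, and the medians were 0.11 and 0.05. Resveratrol had 2 higher and 1 lower, against 7.99% and 8.99% of all tested probes, with medians of 0.17 and 0.01. Quantile normalization turned the shares of all tested probes with resveratrol to 10.1% higher and 8.36% lower. The groups did not overlap in 8 of the 9 genes with GR24, 5 with pinosylvin and 6 with resveratrol, and in 61.1%, 32.7% and 33.1% of all tested probes. These 3 comparisons share the 3 control arrays. *Smad7* was the member called in the same direction with each compound.

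These counts took the brightest probe of each gene. Over the 13 tested probes, 5 were higher and 6 lower with GR24, 4 higher and 1 lower with pinosylvin, and 3 higher and 1 lower with resveratrol. With the mean over the tested probes of a gene, 7 of the 9 passed with GR24, and *Tgfbr1* was then higher (0.76, adjusted p = 0.000118). Leaving out 1 array at a time gave 5 to 8 genes with GR24, 2 to 4 with pinosylvin and 3 with resveratrol, and within slide 1 pinosylvin had 1.

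**Figure D1:**
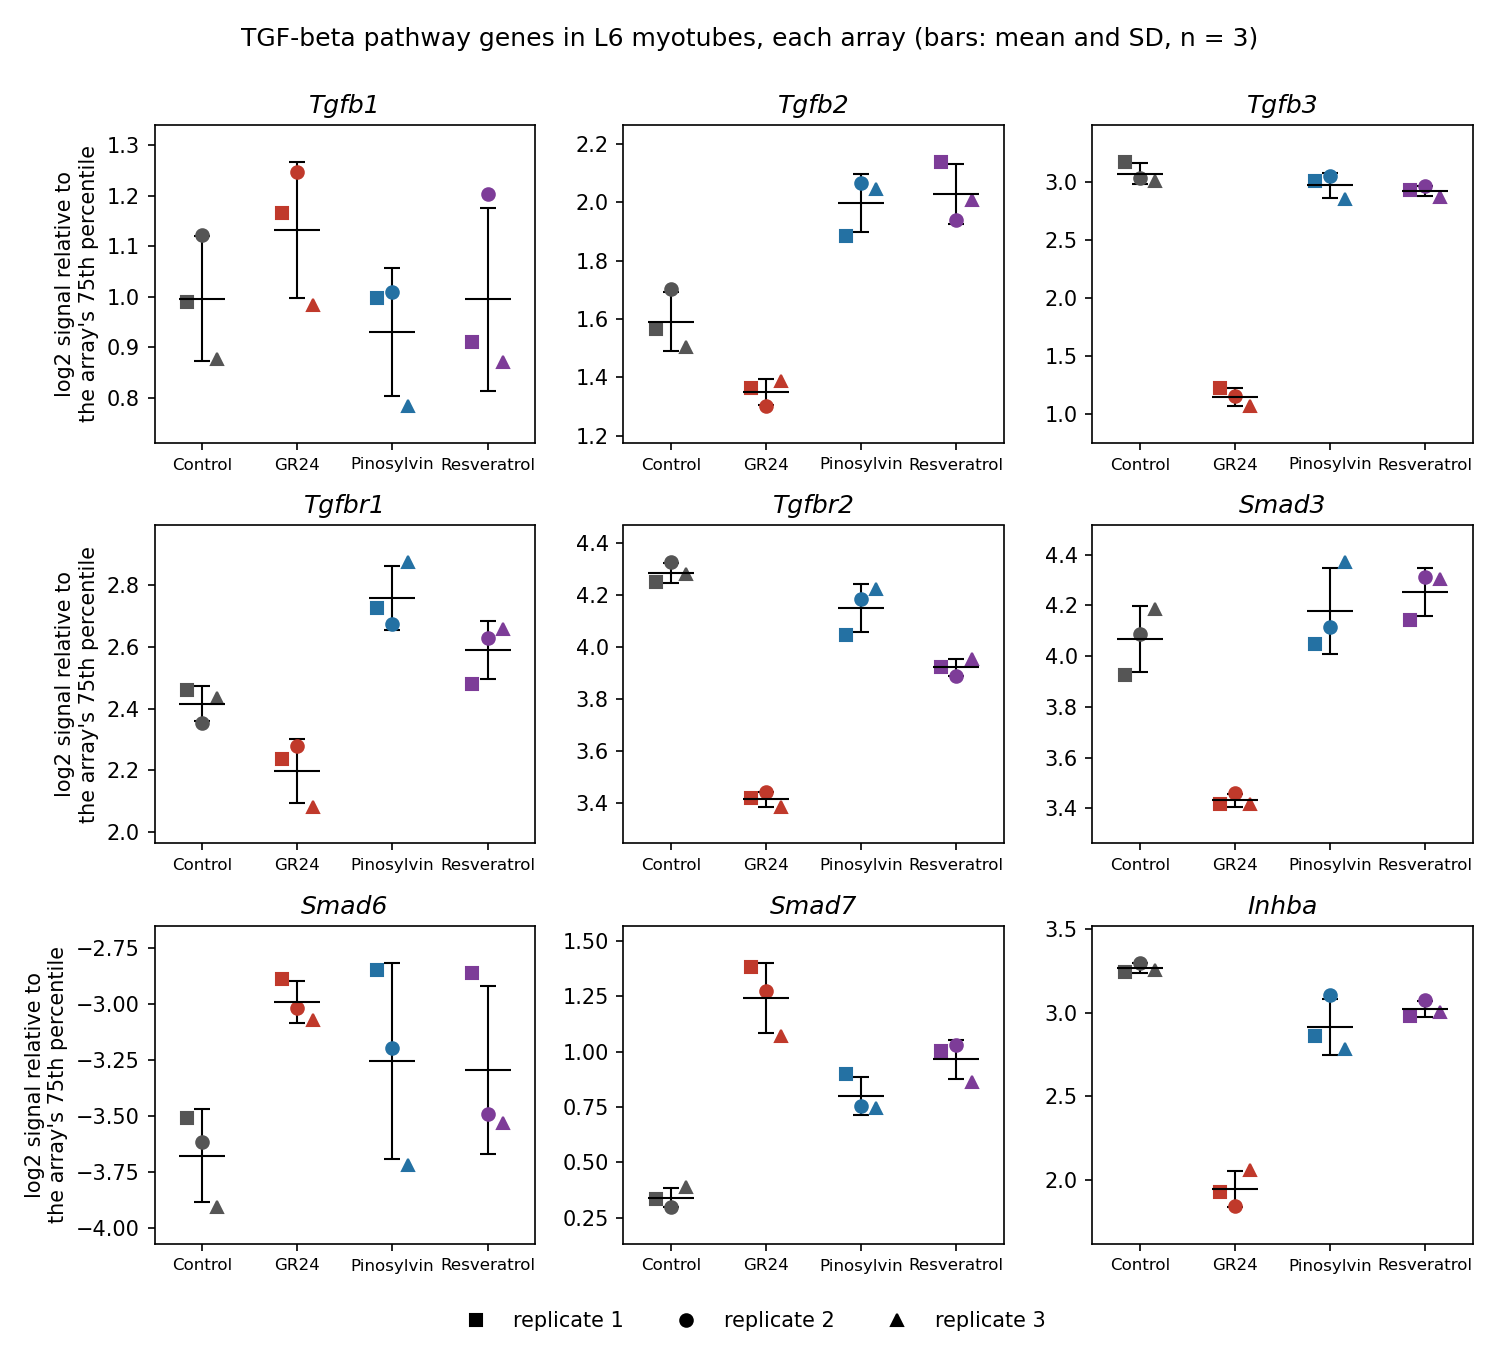
Level of each of the 9 genes on each array, by its brightest probe, as log2 of the signal relative to the 75th percentile of the array (vertical axes, each with its own range). Symbols are replicates, and bars are the mean and SD of 3 arrays. *Tgfb3* lies between 1.07 and 1.22 with GR24 and between 2.85 and 3.17 on the other arrays, while *Smad7* is higher with each compound than on any control array.

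The myotube label was checked against its markers. All 14 myotube markers with a probe were well above background on every control array, and embryonic myosin *Myh3* was the brightest. The summed level of the list, in units of the 75th percentile of the array, was 1060, 1150 and 1010 on the control arrays. It was 441, 427 and 410 with GR24, 1140, 1190 and 1100 with pinosylvin, and 894, 953 and 862 with resveratrol. GR24 lowered 11 of the 14 markers, among them the differentiation factor *Myog*, chosen after its values were seen, whose level fell by 5.83. Pinosylvin raised 2 and lowered 1, and resveratrol lowered 7. In bulk RNA, fewer myotubes and less RNA per myotube cannot be told apart.

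Markers of other cells moved as well. The list of undifferentiated or cycling cells summed to 63.2, 59.2 and 57.8 on the control arrays, with *Cdk1* brightest, and 6 of its 7 measured genes were well above background there. Its sum was 11, 11.3 and 10.4 with GR24, 24.8, 24.9 and 23.2 with pinosylvin, and 35.2, 38.7 and 35.2 with resveratrol. Of its 6 tested genes, 4 were lower with GR24, 4 with pinosylvin and 3 with resveratrol. The fibroblast list, with 6 of 7 genes well above background and *Col3a1* brightest, gave 253, 258 and 241 in the control. Its sums were 115, 116 and 105 with GR24, 216, 217 and 220 with pinosylvin, and 210, 227 and 215 with resveratrol. Both sums were lowest with GR24. Of the 6 tested genes of the fibroblast list, 1 was higher and 5 lower with GR24, 2 higher and 2 lower with pinosylvin, and 1 higher and 1 lower with resveratrol, and *Pdgfra*, chosen after its values were seen, was higher with each (0.23, 0.43 and 0.35). With GR24 its call was lost in 6 alternatives, among them normexp (0.13, adjusted p = 0.101), and with resveratrol it was lost with only the 6 arrays compared (0.0514). The sum of the macrophage list rose from 1.15, 1.07 and 1.18 in the control to 4.25, 4.14 and 3.68 with GR24, with 3 of 5 genes well above background and *Cd14* brightest, while no array measured the leukocyte marker *Ptprc* well above background. The sum was 1.15, 0.977 and 0.992 with pinosylvin and 1.14, 1.25 and 1.21 with resveratrol. Of its 3 tested genes, 2 were higher with GR24 and none was called with either stilbene.

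In the endothelial list, 2 of 5 genes were well above background in the control, *Vwf* was brightest, and the sums ran from 4.25 to 5.73 over the 12 arrays, with *Tie1* not well above background on any. No adipocyte marker was well above background on all control arrays, and *Adipoq*, *Cidec* and *Lep* reached that level on none of the 12. The adipocyte sum, with *Fabp4* brightest, lay between 0.0236 and 0.136. The part of these shifts in the results below was not tested.

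*Tgfb3*, a ligand made by developing muscle among other tissues, had the largest change of the 9 genes. It read 3.17, 3.04 and 3.00 on the control arrays and 1.22, 1.15 and 1.07 with GR24. Pinosylvin gave 3.01, 3.05 and 2.85, and resveratrol 2.93, 2.96 and 2.87. All 3 GR24 arrays lay far below the other 9, which spanned a narrow band. GR24 lowered *Tgfb3* 3.79-fold (log2 difference −1.92, 95% confidence interval −2.09 to −1.75, adjusted p = 1.17e-08). The difference was −1.92 on slide 1 and −1.93 on slide 2. Levels ran from control through pinosylvin and resveratrol down to GR24, and only the last step in that order passed the test. The differences from the control were −0.10 (−0.27 to 0.07) with pinosylvin and −0.15 (−0.32 to 0.02) with resveratrol.

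*Inhba* encodes the subunit that pairs with itself to form activin A, a ligand that signals through SMAD2 and SMAD3. Its level was 3.24, 3.30 and 3.25 in the control, 1.93, 1.85 and 2.06 with GR24, 2.86, 3.10 and 2.78 with pinosylvin and 2.98, 3.08 and 3.01 with resveratrol. Every treated array lay below every control array, and the GR24 arrays were lowest. GR24 lowered *Inhba* 2.50-fold (−1.32, −1.52 to −1.12, adjusted p = 5.77e-07), by −1.38 within slide 1 and −1.19 within slide 2. Pinosylvin lowered it as well (−0.35, −0.55 to −0.15, adjusted p = 0.0231). That call was lost without the filter on dim probes (adjusted p = 0.0848), with only the 6 arrays compared (0.0891), within slide 1 (−0.29, 0.102, against −0.47 within slide 2), and without any of control replicates 1, 2 and 3 or pinosylvin replicates 1 and 3 (−0.36, −0.33, −0.36, −0.32 and −0.28). With resveratrol the difference was −0.24 (−0.44 to −0.05, adjusted p = 0.0934). A second *Inhba* probe was well above background on 2 of the 12 arrays and was not tested.

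*Tgfb2*, a further ligand, was measured by 3 probes. The brightest gave 1.57, 1.70 and 1.50 in the control, 1.36, 1.30 and 1.39 with GR24, 1.89, 2.07 and 2.05 with pinosylvin and 2.14, 1.94 and 2.01 with resveratrol. The stilbene arrays were all above the control arrays, and the GR24 arrays all below them. Pinosylvin raised this probe by 0.41 (0.23 to 0.59, adjusted p = 0.0065) and resveratrol by 0.44 (0.26 to 0.62, adjusted p = 0.00424), and the order was resveratrol, pinosylvin, control and GR24, with no difference passing the test between the first pair. Within slide 1 the pinosylvin difference was 0.34 (adjusted p = 0.0800) and within slide 2 it was 0.54.

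The GR24 difference of the brightest *Tgfb2* probe was small (−0.24, −0.42 to −0.06, adjusted p = 0.0268) and depended on the scaling. It was −0.16 with quantile normalization (adjusted p = 0.102), −0.14 in the authors' series table (0.193) and −0.14 with the percentile taken over all spots (0.165). It also missed the threshold without the filter on dim probes (0.0851), with only the 6 arrays compared (0.0520), and without control replicates 1 or 2 or GR24 replicates 1 or 2 (−0.25, −0.18, −0.25 and −0.21). It was −0.30 within slide 1 and −0.12 within slide 2. The other probes, which both matched another transcript accession of the gene than the brightest, went the opposite way with GR24. Probe A_44_P246538 rose by 0.35 (0.13 to 0.57, adjusted p = 0.0119), by 0.46 within slide 1 and 0.13 within slide 2, and for probe A_43_P12532 the difference was 0.41 (−0.07 to 0.89, adjusted p = 0.137). For the latter it was 0.62 without control replicate 3 (adjusted p = 0.0231), 0.58 within slide 1 (adjusted p = 0.00492) and 0.06 within slide 2.

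Across compounds, the dimmer *Tgfb2* probes were both higher on average in each treated group than in the control. Probe A_43_P12532 read −0.11, −0.19 and 0.50 in the control, 0.39, 0.47 and 0.56 with GR24, 0.28, 0.35 and 0.88 with pinosylvin and 0.41, 0.73 and 0.98 with resveratrol. In every group its highest array was replicate 3, and the groups overlapped. With the replicate block its adjusted p was 0.0126 for GR24, 0.0235 for pinosylvin (0.44) and 0.00437 for resveratrol (0.64), so that it passed the threshold in each, as it did with the slide as block (0.0106, 0.0196 and 0.00299). Leaving out 1 array at a time gave pinosylvin differences from 0.25 to 0.65 for this probe. Probe A_44_P246538 rose with resveratrol by 0.51 (0.29 to 0.74, adjusted p = 0.00582) and differed by 0.24 (0.02 to 0.47, adjusted p = 0.135) with pinosylvin, or by 0.35 without control replicate 3 (adjusted p = 0.0337), by 0.36 within slide 1 and by 0.01 within slide 2. The direction of *Tgfb2* with GR24 thus differed between probes, and with the mean over its probes the GR24 difference was 0.17 (adjusted p = 0.154).

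*Tgfb1*, the most widely expressed of the 3 ligands, gave 0.99, 1.12 and 0.88 in the control and 1.17, 1.25 and 0.98 with GR24. It was 1.00, 1.01 and 0.78 with pinosylvin and 0.91, 1.20 and 0.87 with resveratrol. The 4 groups overlapped, and no pair of neighbours in their order differed beyond its spread. Differences from the control were 0.14 (−0.12 to 0.39) with GR24, −0.07 (−0.32 to 0.19) with pinosylvin and 0.00 (−0.26 to 0.25) with resveratrol. GR24 exceeded pinosylvin by 0.20 (−0.05 to 0.46, adjusted p = 0.161), and this passed the threshold with the replicate block (adjusted p = 0.0131), with the slide as block (0.0348) and with the percentile taken over all spots (0.29, adjusted p = 0.0253).

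The type II receptor *Tgfbr2* binds the ligand first. Its brightest probe read 4.25, 4.33 and 4.28 in the control, 3.42, 3.44 and 3.39 with GR24, 4.05, 4.18 and 4.22 with pinosylvin and 3.92, 3.89 and 3.96 with resveratrol. Every GR24 array was below every other array, and the resveratrol arrays lay between them and the pinosylvin arrays. GR24 lowered it by −0.87 (−1.01 to −0.73, adjusted p = 9.11e-07) and resveratrol by −0.36 (−0.50 to −0.22, adjusted p = 0.00282). The GR24 difference was −0.86 within slide 1 and −0.89 within slide 2, and that of resveratrol −0.38 and −0.32. With pinosylvin it was −0.13 (−0.27 to 0.00). In the order of control, pinosylvin, resveratrol and GR24, the last step passed the test and the first did not. The step from pinosylvin to resveratrol passed here, but in 12 of the 25 alternatives, as given below.

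A dimmer *Tgfbr2* probe, A_64_P129315, matched another transcript accession of the gene and moved the other way with GR24. It read −0.95, −1.01 and −1.25 in the control and −0.66, −0.51 and −0.77 with GR24. Pinosylvin gave −1.02, −1.02 and −1.29 and resveratrol −1.23, −1.21 and −1.52. The GR24 arrays were all above the others. GR24 raised it by 0.42 (0.15 to 0.70, adjusted p = 0.0126), a call lost without GR24 replicate 2 (0.36, adjusted p = 0.0517) or control replicate 3 (0.33, adjusted p = 0.0501). Resveratrol differed by −0.25 (−0.52 to 0.02, adjusted p = 0.213) and passed the threshold with the replicate block (adjusted p = 0.00983) and with the slide as block (0.00658). Leaving out 1 array at a time gave resveratrol differences from −0.34 to −0.15 for this probe. Averaged over both probes, *Tgfbr2* was lower by −0.22 with GR24, and GR24 minus resveratrol turned from −0.51 to 0.08 (adjusted p = 0.374).

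*Tgfbr1* encodes the type I receptor, the kinase that phosphorylates SMAD3. Its brightest probe gave 2.46, 2.35 and 2.44 in the control, 2.24, 2.28 and 2.08 with GR24, 2.73, 2.68 and 2.88 with pinosylvin and 2.48, 2.63 and 2.66 with resveratrol. Pinosylvin arrays were all above the control arrays and GR24 arrays all below them. Pinosylvin raised it by 0.34 (0.16 to 0.53, adjusted p = 0.0168). This call was lost without the filter on dim probes (adjusted p = 0.0688), with only the 6 arrays compared (0.0558), within slide 1 (0.30, 0.0555), and without control replicate 2 (0.31, 0.0556) or pinosylvin replicate 3 (0.29, 0.0567). The GR24 difference of −0.22 (−0.40 to −0.03, adjusted p = 0.0434) was lost with quantile normalization (−0.12, 0.251), in the series table (−0.11, 0.255), with the percentile over all spots (−0.12, 0.261), without the filter on dim probes (0.126), with only the 6 arrays compared (0.0770), and within slide 1 (−0.15, 0.147, against −0.35 within slide 2). It was also lost on leaving out any of control replicates 1 and 3, GR24 replicates 1 and 3, pinosylvin replicate 1 or resveratrol replicates 2 and 3 (−0.19, −0.21, −0.24, −0.16, −0.22, −0.22 and −0.22). Resveratrol gave 0.17 (−0.01 to 0.36). From the highest, the order was pinosylvin, resveratrol, control and GR24, and of these steps the last passed.

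A second *Tgfbr1* probe, A_44_P1362182, was near background and was well above it on 11 of the 12 arrays. This probe was measured on 2 of the 3 control arrays, so that its differences from the control rest in part on an unmeasured level. It read −4.39, −5.05 and −4.66 in the control, −3.004, −2.80 and −3.12 with GR24, −3.79, −3.80 and −3.91 with pinosylvin and −4.20, −4.46 and −4.77 with resveratrol. GR24 arrays were highest and pinosylvin arrays next, with no overlap. GR24 raised this probe by 1.73 (1.33 to 2.12, adjusted p = 1.36e-05) and pinosylvin by 0.87 (0.47 to 1.26, adjusted p = 0.00793), a call lost with normexp background correction (0.31, adjusted p = 0.0642) and in the series table (0.49, adjusted p = 0.0660). The lowest GR24 difference over the alternatives was 0.71. The mean over both probes was 0.76 higher with GR24, so that the direction of *Tgfbr1* depended on the probe.

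**Figure D2:**
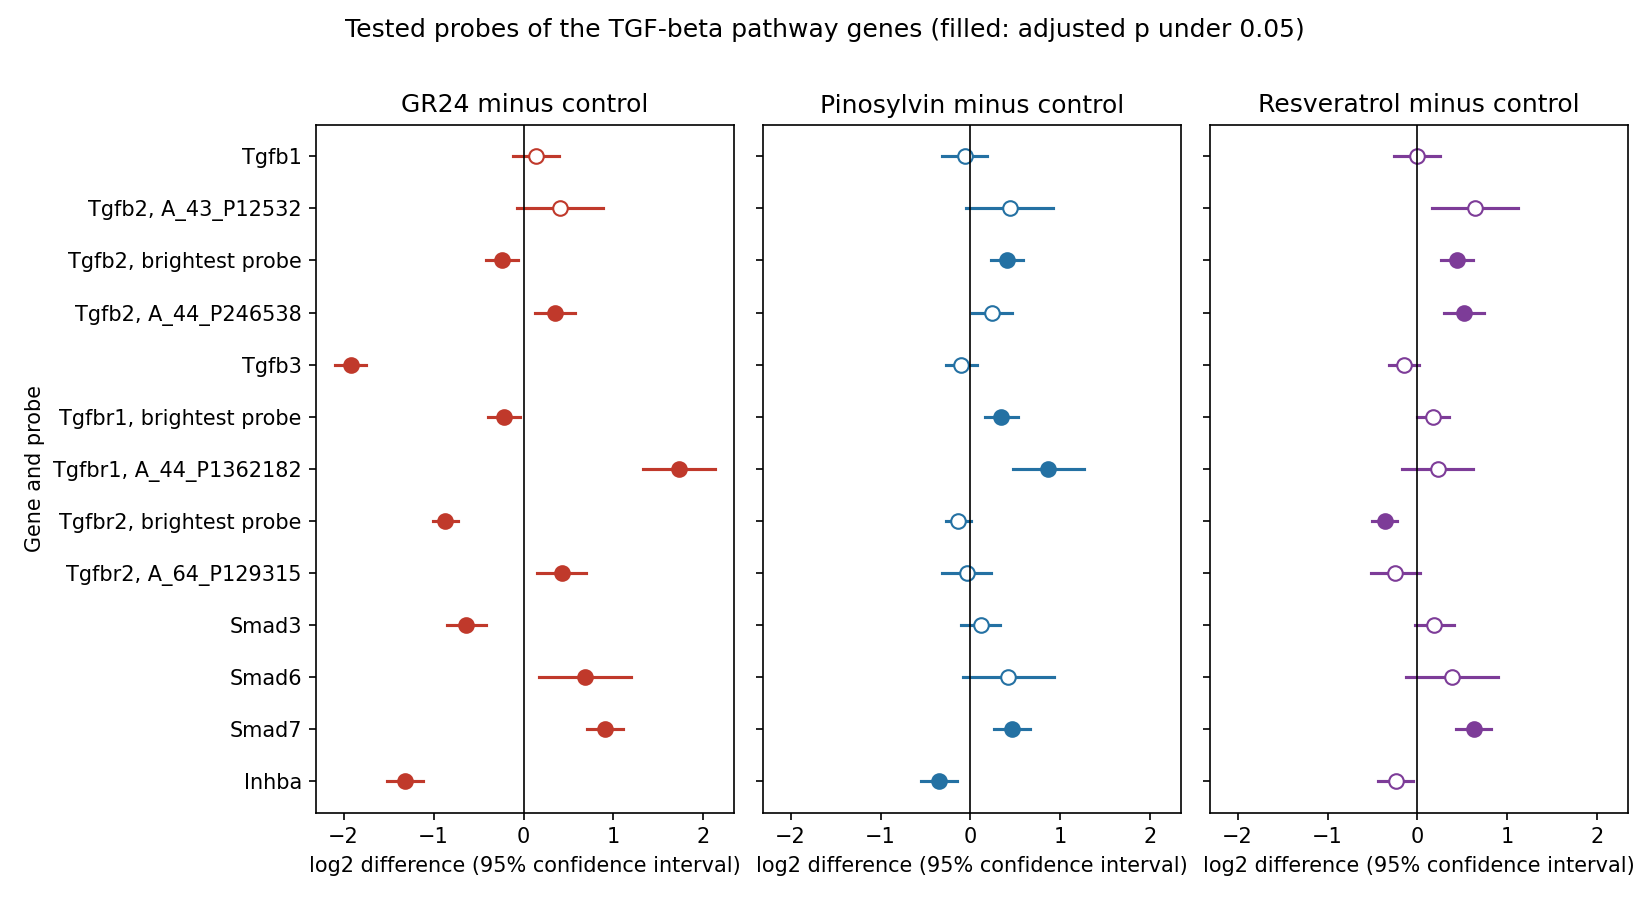
Log2 difference from the control (horizontal axes) of each of the 13 tested probes of the 9 genes, with its 95% confidence interval, for GR24, pinosylvin and resveratrol. Filled points have an adjusted p under 0.05. With GR24 the brightest and the dimmer probes of *Tgfb2*, *Tgfbr1* and *Tgfbr2* lie on opposite sides of 0.

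*Smad3* carries the signal of TGF-beta and activin receptors into the nucleus. It gave 3.93, 4.09 and 4.19 in the control, 3.42, 3.46 and 3.42 with GR24, 4.05, 4.12 and 4.37 with pinosylvin and 4.14, 4.31 and 4.30 with resveratrol. The 3 GR24 arrays were close together and below the other 9, among which the groups overlapped. GR24 lowered it 1.55-fold (−0.63, −0.85 to −0.42, adjusted p = 0.000255), by −0.57 within slide 1 and −0.77 within slide 2. Differences from the control were 0.11 (−0.11 to 0.33) with pinosylvin and 0.19 (−0.03 to 0.40) with resveratrol. The order was resveratrol, pinosylvin, control and GR24, and the step from control to GR24 was the one that passed.

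*Smad7*, the inhibitory SMAD that blocks TGF-beta receptors and is itself switched on by the pathway, was higher with each compound. It read 0.33, 0.30 and 0.39 in the control, 1.38, 1.28 and 1.07 with GR24, 0.90, 0.75 and 0.75 with pinosylvin and 1.00, 1.03 and 0.86 with resveratrol. Each of the 9 treated arrays was above each control array. The rise was 1.87-fold with GR24 (0.90, 0.71 to 1.101, adjusted p = 9.15e-06), 1.54-fold with resveratrol (0.63, 0.43 to 0.82, adjusted p = 0.000900) and 1.38-fold with pinosylvin (0.46, 0.26 to 0.66, adjusted p = 0.00541). Within slide 1 the differences were 1.01, 0.70 and 0.51, and within slide 2 they were 0.69, 0.48 and 0.36. All 3 calls held in each of the 25 alternatives run.

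The compounds were ordered GR24, resveratrol and pinosylvin in their *Smad7* level. GR24 exceeded pinosylvin by 0.44 (0.25 to 0.64, adjusted p = 0.00147). GR24 exceeded resveratrol by 0.28 (0.08 to 0.48, adjusted p = 0.0218), a call lost without the filter on dim probes (adjusted p = 0.0676), with only the 6 arrays compared (0.0668), and without GR24 replicates 1 or 2 or resveratrol replicate 3 (0.21, 0.26 and 0.23). Pinosylvin minus resveratrol was −0.17 (−0.36 to 0.03).

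*Smad6*, the inhibitory SMAD known for limiting bone morphogenetic protein (BMP) signals, was dim but well above background on all 12 arrays. It read −3.51, −3.62 and −3.91 in the control, −2.89, −3.02 and −3.07 with GR24, −2.85, −3.20 and −3.72 with pinosylvin and −2.86, −3.49 and −3.53 with resveratrol. GR24 arrays were all above the control arrays, and both stilbene groups spread over most of the range. GR24 raised it by 0.68 (0.17 to 1.19, adjusted p = 0.0260). The call was lost with normexp background correction (0.31, adjusted p = 0.0667), without the filter on dim probes (0.0598), and without GR24 replicates 1 or 2 or control replicate 3 (0.63, 0.70 and 0.57). The differences were 0.42 (−0.09 to 0.93) with pinosylvin and 0.38 (−0.13 to 0.89) with resveratrol, and with the replicate block pinosylvin passed the threshold (adjusted p = 0.0478). With the slide as block it did not (0.0958), and the pinosylvin difference was 0.22 without pinosylvin replicate 1 and 0.65 without pinosylvin replicate 3. Over the alternatives the resveratrol difference ran from 0.10 with normexp to 0.50, and it was 0.17 without resveratrol replicate 1. No neighbours in the order GR24, pinosylvin, resveratrol and control differed beyond their spread. *Smad6* and *Smad3* are neighbours on rat chromosome 8, with 0 genes between them in the RefSeq table.

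Set against each other, the compounds differed most between GR24 and the stilbenes. GR24 minus pinosylvin had 7 of the 9 genes past the threshold, 1 higher and 6 lower, beside 56.4% of all tested probes in either direction. GR24 minus resveratrol had 7, again 1 higher and 6 lower, beside 51.4%. Of the called probes of GR24 minus resveratrol, 53.4% were higher, and 64.1% with the percentile over all spots, which moved the median of all tested probes by 0.11. For GR24 minus pinosylvin the shares were 52.5% and 60.7%, and the median moved by 0.09. By the brightest probes *Smad7* was the higher gene in both comparisons, and the median over the 9 genes was −0.65 and −0.51. When the tested probes of a gene were averaged, these medians were −0.14 and 0.08, in both comparisons the value of *Tgfbr2*. The dimmer probes of *Tgfbr1* (0.86 and 1.502) and *Tgfbr2* (0.46 and 0.67) were higher in both as well, so that 3 of the 13 tested probes were higher and 6 lower in each. With the mean over the probes, GR24 minus pinosylvin had 4 genes past the threshold, GR24 minus resveratrol had 6, and *Tgfbr1* was higher in the latter (0.56, adjusted p = 0.00119).

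Pinosylvin and resveratrol differed in 1 of the 9 genes, where 14.5% of all tested probes were called in either direction. This was *Tgfbr2*, higher with pinosylvin by 0.23 (0.09 to 0.37, adjusted p = 0.0351), and the call was lost with quantile normalization (0.21, adjusted p = 0.0545), normexp (0.19, 0.0734), without the filter (0.143), with only the 6 arrays compared (0.117), within slide 1 (0.21, 0.114), and with the mean over the probes (0.22, 0.0688). It was also lost without control replicate 1, GR24 replicate 1, pinosylvin replicates 2 or 3 or resveratrol replicates 1, 2 or 3 (0.23, 0.23, 0.21, 0.19, 0.23, 0.21 and 0.24). The near-background *Tgfbr1* probe differed by 0.64 (0.24 to 1.04, adjusted p = 0.0381), lost among others with quantile normalization (0.51, 0.175), in the series table (0.21, 0.462) and without resveratrol replicate 3 (0.49, 0.126). For the other genes the difference did not pass, with intervals of −0.32 to 0.19 for *Tgfb1*, −0.21 to 0.15 for *Tgfb2* and −0.12 to 0.22 for *Tgfb3*. They were −0.30 to 0.09 for *Inhba*, −0.01 to 0.35 for *Tgfbr1* and −0.29 to 0.14 for *Smad3*, and *Tgfbr1* passed with the mean over its probes (0.40, adjusted p = 0.0278). For *Smad6* the interval was −0.47 to 0.55, so that it leaves room for sizeable differences in either direction.

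The surrounding pathway was described by 8 lists that hold 91 other genes, of which 67 had a tested probe. With GR24, 15 of the 67 were higher and 31 lower, with a median of −0.26. Pinosylvin had 6 higher and 10 lower (median 0.01), and resveratrol 5 higher and 12 lower (median −0.06). For these counts and those of each list below, 31.5% of all tested probes were higher and 25.5% lower with GR24. The shares were 8.28% and 8.27% with pinosylvin and 7.99% and 8.99% with resveratrol. No list was tested against these shares, and the medians over all tested probes are those given above. The replicate block gave 52, 24 and 23 called genes in place of 46, 16 and 17, and it raised the share called over all tested probes as well, from 57.1%, 16.6% and 17.0% to 66.6%, 28.6% and 27.9%.

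Of 9 tested genes that store and release the latent ligands, 6 were lower with GR24 and none was called higher. Among the lower genes was thrombospondin 1 (*Thbs1*, −1.62, adjusted p = 2.45e-06), which activates latent TGF-beta. *Ltbp2*, a latent TGF-beta binding protein of the matrix, fell by 1.09, and the membrane protease *Mmp14* fell by 1.07. Pinosylvin raised *Thbs1* by 0.66 (adjusted p = 0.00724) and the binding protein *Ltbp3* by 0.47, a call lost without the filter on dim probes (0.0650), with only the 6 arrays compared (0.0813), and without pinosylvin replicates 1 or 2 or control replicate 3 (0.48, 0.38 and 0.37). *Thbs1* thus moved in opposite directions with GR24 and pinosylvin. Resveratrol raised none and lowered 3, among them *Ltbp2* (−0.42) and *Ltbp4* (−0.55), the latter lost with only the 6 arrays compared (adjusted p = 0.0549).

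Among other ligands of the family, 1 of 8 was higher and 5 were lower with GR24. The higher one was the stress-induced ligand *Gdf15*, for which no control array had a signal well above background. As a floor, the lowest level of any spot well above background on each control array was taken. Against that floor it was 4.35-fold higher with GR24 and 2.12-fold with resveratrol (adjusted p of the fitted differences 5.21e-06 and 0.000809). The floor is no strict limit for an unmeasured signal, so these folds are no strict bounds. With pinosylvin, 1 of 3 arrays measured it, so that the fitted difference rests mostly on unmeasured values and no such fold is given. Its call (adjusted p = 0.0296) was lost with quantile normalization, normexp, in the series table, without the filter on dim probes and within slide 1. It was also lost without pinosylvin replicates 1 or 2 or control replicates 2 or 3 (fitted log2 difference 0.94, 0.96, 0.91 and 0.85). With pinosylvin the fitted difference was 0.29 with normexp and 0.53 in the series table. The folds against the floor hold for this background correction, and the lowest fitted log2 difference over the alternatives was 1.11 with GR24 and 0.54 with resveratrol. GR24 lowered *Bmp2*, a bone morphogenetic protein, by −1.26 and the activin-like ligand *Gdf11* by −1.16. The activin beta B subunit *Inhbb* was lower by −0.49 with resveratrol and by −0.98 with GR24 (adjusted p = 1.84e-06), and with the replicate block it passed with pinosylvin too (−0.23, adjusted p = 0.0223). Resveratrol raised 2 of the 8, *Gdf15* and *Gdf11* (0.36, adjusted p = 0.000936), so that *Gdf11* moved opposite to GR24. *Inhbb* with GR24 and *Gdf11* with resveratrol were chosen after their values were seen.

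Of 9 tested extracellular antagonists of these ligands, 6 were lower with GR24 and none was called higher. Chordin (*Chrd*), which binds BMPs, read 2.40, 2.48 and 2.31 in the control and 0.02, −0.18 and 0.00 with GR24 (−2.45, adjusted p = 6.15e-09). Follistatin (*Fst*), which binds activins, read 6.08, 6.10 and 5.99 in the control, 3.73, 3.78 and 3.68 with GR24 (−2.33, adjusted p = 1.95e-08) and 4.81, 5.09 and 4.82 with resveratrol (−1.15, adjusted p = 4.93e-05). In both genes the control and GR24 arrays were far apart. The BMP antagonist *Nog* fell by 1.15 with GR24, or by 0.53 with normexp. Resveratrol had 2 of the 9 lower, *Fst* and *Chrd* (−0.72), and 1 higher, the BMP antagonist *Grem1* (0.35, adjusted p = 0.00800), which for that compound was chosen after its values were seen. Pinosylvin had 1 lower, again *Grem1* (−0.35, adjusted p = 0.00746), so that the stilbenes moved this gene in opposite directions. With the replicate block, *Grem1* also passed with GR24 (−0.13, adjusted p = 0.0413) and *Nog* with pinosylvin (−0.34, adjusted p = 0.0353). The *Nog* difference passed in 1 of the 25 alternatives, over which it ran from −0.40 to −0.14. That of *Grem1* passed in 2 of the 25 and ran from −0.17 to −0.03.

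*Bambi*, a receptor decoy that lacks the kinase domain and dampens TGF-beta and BMP signals, was higher with each compound. It read 0.44, 0.43 and 0.39 in the control, 2.06, 2.12 and 2.02 with GR24, 0.79, 0.80 and 0.68 with pinosylvin and 1.55, 1.40 and 1.35 with resveratrol. The 4 groups did not overlap, and all 9 treated arrays were above the control. The difference was 1.65 with GR24 (adjusted p = 1.84e-08), 1.01 with resveratrol (adjusted p = 1.34e-05) and 0.33 with pinosylvin (adjusted p = 0.00865). The list of other receptors held 7 tested genes, *Bambi* among them, of which 2 were higher and 2 lower with GR24. The higher genes were *Bambi* and the activin receptor *Acvr2a* (0.57), and *Acvr2b*, a related receptor, was lower (−0.82). The *Acvr2a* difference was 0.31 with normexp, and its call was lost without control replicate 1 or GR24 replicate 2 (0.44 and 0.43). With pinosylvin and with resveratrol, *Bambi* was the 1 gene of the list past the threshold.

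Of 7 other SMADs and receptor adaptors, GR24 raised 3 and lowered 1. *Smad4*, the common partner of the receptor-activated SMADs, rose by 0.79 (adjusted p = 0.00131), *Tgfbrap1*, a receptor-associated protein, rose by 0.47, and the BMP transducer *Smad1* changed by −0.74. Pinosylvin lowered *Smad2* by −0.47 (adjusted p = 0.00600). For resveratrol the *Smad2* difference of −0.29 passed the threshold in 8 of the 25 alternatives, among them the replicate block (adjusted p = 0.0161). Resveratrol lowered *Smad1* by −0.31, at an adjusted p of 0.0499, a call lost without the filter on dim probes (0.145), with only the 6 arrays compared (0.101), and on leaving out any of control replicates 1 and 2, GR24 replicates 1 and 2, pinosylvin replicates 1 and 2 or the 3 resveratrol replicates (−0.35 to −0.24). Among SMAD repressors and ubiquitin ligases, GR24 raised 5 of 8 and lowered 2. The repressor *Tgif2* changed by −1.31 and its relative *Tgif1* by 0.54, in opposite directions, and *Pmepa1*, a feedback inhibitor, by −0.73. Pinosylvin raised *Tgif1* by 0.40, though not past the threshold within slide 1 (0.33, adjusted p = 0.0852). No gene of the list was called with resveratrol, while *Tgif2* passed with the replicate block (−0.14, adjusted p = 0.0416).

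Genes known to rise with TGF-beta were mostly lower with GR24, 9 of 16 against 3 higher. Smooth muscle actin (*Acta2*), which immature muscle cells also make, read 4.56, 4.73 and 4.78 in the control and 0.21, 0.36 and 0.74 with GR24 (−4.26, 19.1-fold, adjusted p = 3.67e-09). Connective tissue growth factor (*Ccn2*) read 7.27, 7.31 and 7.23 in the control and 5.41, 5.52 and 5.40 with GR24 (−1.83, adjusted p = 1.05e-08). In neither gene did the groups overlap. The oxidase *Nox4* changed by −1.79 with GR24 (−0.83 with normexp) and by −0.65 with resveratrol, the latter lost with quantile normalization (−0.56, adjusted p = 0.0817), without the filter on dim probes (0.0911), within slide 1 (−0.75, 0.0628), and without any of the 3 control replicates, resveratrol replicates 1 or 2 or pinosylvin replicate 2 (−0.69 to −0.59). The 3 higher genes were *Junb* (1.43), *Bhlhe40* (1.07) and *Klf10* (0.90), transcription factors that other stimuli also induce. *Junb* and *Klf10* were chosen after their values were seen.

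With pinosylvin, 1 of the same 16 genes was higher and 4 lower, led by the matrix protein gene *Tgfbi* (−0.58, adjusted p = 0.00374) and the collagen gene *Col1a1* (−0.34, adjusted p = 0.0114), the latter lost without the filter on dim probes (0.0537) and with only the 6 arrays compared (0.0604). With resveratrol 1 was higher, *Bhlhe40* (0.57, adjusted p = 0.00282), and 5 were lower. Of 6 genes known to rise with BMP, GR24 raised 2 and lowered 2, pinosylvin raised 1 and lowered 4, and resveratrol raised 1 and lowered 1. *Atoh8*, a transcription factor, was lower with GR24 (−1.82), resveratrol (−1.03) and pinosylvin (−0.47), the last call lost without the filter on dim probes (0.118), with only the 6 arrays compared (0.0981), and without control replicates 1 or 2, any pinosylvin replicate, GR24 replicate 2 or resveratrol replicate 2 (−0.51 to −0.38). Of the *Id* genes, inhibitors of differentiation factors, *Id4* changed by −1.27 with GR24 (−0.69 with normexp), lost within slide 1 (adjusted p = 0.0550), while *Id2*, chosen after its values were seen, rose by 1.22 (adjusted p = 9.93e-07). *Id1* changed by 0.04 with GR24 (adjusted p = 0.766) and by −0.77 with pinosylvin (adjusted p = 0.000226). *Id1* read −1.73, −1.74 and −1.57 in the control and −2.47, −2.35 and −2.52 with pinosylvin, with no overlap.

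**Figure D3:**
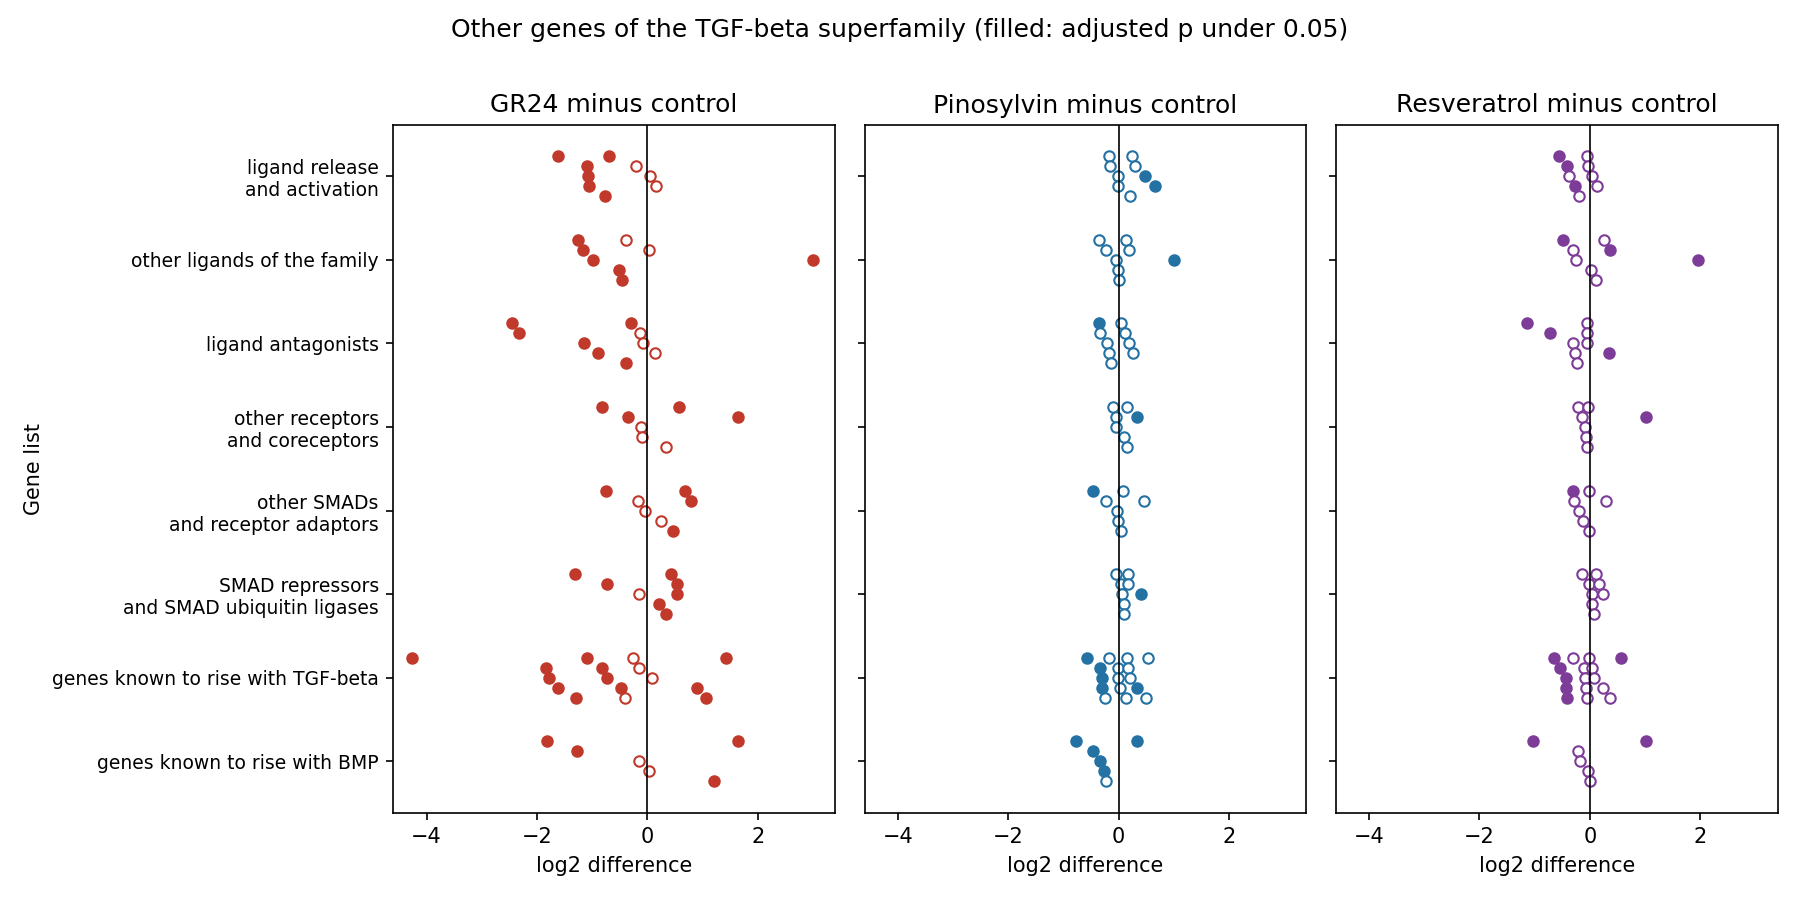
Log2 difference from the control (horizontal axes) of the tested genes in the 8 pathway lists (vertical axis, with points spread within a list for visibility), for GR24, pinosylvin and resveratrol. Filled points have an adjusted p under 0.05, and a gene in more than 1 list is drawn in each. *Acta2* at −4.26 marks the low end of the GR24 panel, and *Gdf15*, which no control array measured, is drawn at its fitted difference.

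The genes whose pattern over the 12 arrays was nearest to that of each called member were found among 10736 other genes. The measure was the root mean square distance between log2 values centred on the mean of each gene. Nearest to *Tgfb3* were *Akr1c3* (0.0702), *Cacnb1* (0.0829) and *Klhl31* (0.0854), each lower with GR24. For *Inhba* they were *Grtp1* (0.0750), *C13h1orf21* (0.0877) and *Tcf4* (0.0942). The brightest *Tgfb2* probe was followed by *LOC690120* (0.0857), *Tmem150a* (0.0873) and *Tanc1* (0.0917). *Tgfbr2* had *Sh3bgrl1* (0.0640), *Tmem109* (0.0640) and *Chn1* (0.0783), and *Tgfbr1* had *Mmp2* (0.0751), *Dpy19l3* (0.0772) and *Gfpt1* (0.0777). *Pnn* (0.0629), *Camkk2* (0.0873) and *Agap1* (0.0915) were nearest to *Smad3*. *Bzw2* (0.0847), *Me1* (0.0887) and *Tbce* (0.0928) were nearest to *Smad7*, and all 3 were higher with each compound on average. *Smad6* had the most distant neighbours, *Marchf3* (0.172), *Arhgap8* (0.174) and *Irf2bpl* (0.175).

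Promoter sequences of 8 of the 9 genes were matched in RefSeq (assembly GRCr8), and *Smad6* was not. The 250 bases before the start were searched on both strands for the SMAD palindrome GTCTAGAC, the shorter SMAD motif GTCTG, the antioxidant response element core TGACNNNGC and the AP-1 motif TGAGTCA. An AP-1 motif followed by certain bases also matches the antioxidant core. Of 33469 promoters, 0.173%, 42.9%, 10.1% and 4.05% hold these motifs in that order. Among the 8, only *Tgfbr2* held a match, GCTTAGTCA, an antioxidant core on the reverse strand that begins 193 bases before the start. Only 3 of the 8 windows, those of *Tgfb1*, *Smad3* and *Smad7*, lie outside the annotated gene, and that of *Tgfbr2* does not. The window of *Smad7* is shown with that of *Bambi*, since both genes were higher with every compound. It lies at chr18:71263258-71263507 on the plus strand for *Smad7* and at chr17:58821004-58821253 on the minus strand for *Bambi*, outside the annotated gene in each. Capitals mark the antioxidant core in *Bambi*, which begins 78 bases before the start, and the *Smad7* window held none of the 4 motifs. A match describes letters and shows no site or cause, and a missing match says only that these letters are not in this window.
Smad7: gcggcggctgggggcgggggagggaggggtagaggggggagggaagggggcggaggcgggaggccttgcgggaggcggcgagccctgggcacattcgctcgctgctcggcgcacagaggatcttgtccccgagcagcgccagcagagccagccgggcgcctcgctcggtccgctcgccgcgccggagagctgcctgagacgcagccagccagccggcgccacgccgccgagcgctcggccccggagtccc
Bambi: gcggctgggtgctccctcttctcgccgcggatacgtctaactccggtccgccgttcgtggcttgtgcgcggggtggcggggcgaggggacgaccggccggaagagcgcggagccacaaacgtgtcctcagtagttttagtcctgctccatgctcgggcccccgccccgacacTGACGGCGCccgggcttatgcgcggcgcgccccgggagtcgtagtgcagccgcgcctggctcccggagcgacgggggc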

How the data were processed

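RNA of 12 samples was measured on 1-colour Agilent rat arrays, 3 per group. Intensity values were deposited as scanner output of Agilent Feature Extraction 12.0.0.7, background subtracted. The authors' series table holds log2 values for 25848 probes, normalized between arrays by an unstated method. On each array these values were correlated with the log2 median signals of the scanner output, without background subtraction (0.9994 to 0.9997). Their correlation with the values used here was not computed. Here, log2 processed signals were averaged over spots, without outlier and control spots, and scaled by subtracting the array's own 75th percentile over probes. Of 45598 probes, 24279 were well above background (at least 0.5 of spots) on all 3 arrays of a group and were tested. Well above background were 58.0% to 64.3% of spots per array, and 0 were saturated. RefSeq accessions named 21109 probes (46.3%). The brightest probe stood for a gene. One limma 3.58.1 fit (R 4.3.3) gave 6 contrasts, with p adjusted by Benjamini-Hochberg over all tested probes. The fit was also run on simulated arrays with independent noise and 200 changed probes, which checks the code and not these data. In the real arrays, same-numbered replicates were correlated after group means were removed (18 of 18 pairs, 0.191 to 0.744). Members and lists were chosen with earlier results of these data known. Of each pathway list, the called genes with the largest differences were named, 3 with GR24 and 2 with each stilbene.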

Additional observations from a re-analysis of the deposited data

How the results depend on the processing

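The direction and call of *Tgfb3*, *Inhba*, *Smad3*, *Smad7* and *Tgfbr2* with GR24, of *Smad7* with pinosylvin and resveratrol and of *Tgfbr2* with resveratrol held in all 25 alternatives. Their log2 differences ranged from −1.96 to −1.76, −1.38 to −1.22, −0.70 to −0.53, 0.82 to 1.01, −0.89 to −0.22, 0.38 to 0.51, 0.58 to 0.70 and −0.38 to −0.31. For *Tgfbr2* this covers only its brightest probe and the mean over its probes. Its dimmer probe A_64_P129315 was higher with GR24 (0.42, adjusted p = 0.0126 in the main fit).

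With the mean over all tested probes of a gene, which mixes probes that moved in opposite directions, 5 differences reversed. *Tgfb2* was 0.17 and *Tgfbr1* 0.76 for GR24 minus control, *Tgfbr1* 0.15 for GR24 minus pinosylvin and 0.56 for GR24 minus resveratrol, and *Tgfbr2* 0.083 for GR24 minus resveratrol. Of these 5, only *Tgfbr1* for GR24 minus control and for GR24 minus resveratrol passed the threshold. GR24 minus pinosylvin then had 4 genes past the threshold in place of 7.

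GR24 had 8 of the 9 genes past the threshold in the report, 7 with normexp, slide 1 and the mean over probes, and 6 with quantile normalization, the series table, the percentile over all spots and the 6 arrays. GR24 minus pinosylvin rose from 7 to 8 with the percentile over all spots and both blocks, GR24 minus resveratrol fell from 7 to 6 with no filter, the 6 arrays and the mean over probes, and pinosylvin rose from 4 to 5 with the replicate block. Without the filter on dim probes, which tests more probes, GR24 had 5 of the 9 genes, pinosylvin 2, and pinosylvin 8 of the pathway genes. With only the 6 arrays compared, pinosylvin had 2 of the 9 and 9 pathway genes, and within slide 1 it had 1 of the 9. Pinosylvin minus resveratrol had 0 with quantile normalization, normexp, no filter, the 6 arrays and slide 1. The cause was not tested where the alternative did not itself change the number of probes or arrays.

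Leaving out 1 array at a time gave 5 to 8 genes for GR24 (5 without GR24 replicate 1), 2 to 4 for pinosylvin (2 without control replicate 2 or pinosylvin replicate 3) and 0 to 1 for pinosylvin minus resveratrol, with 0 in 7 of 12 cases. Of the pathway genes, 43 to 47 were called with GR24, 11 to 16 with pinosylvin and 13 to 19 with resveratrol.

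The paired fit with the replicate block gained calls of pathway genes that the report counts but does not name. Among the pathway genes it names, the fit gained the calls given there and, for *Tgfbr2* probe A_64_P129315, pinosylvin minus resveratrol (0.21, adjusted p = 0.0230), *Junb* with pinosylvin (0.50) and resveratrol (0.37) and *Klf10* with pinosylvin (−0.24). Over the alternatives other than single arrays, 912 of the member-probe values kept direction and call, 38 lost the call, 20 gained it, 9 uncalled values changed sign and 5 reversed. Differences of dim genes with GR24 were smaller with normexp: the second *Tgfbr1* probe 0.71, *Smad6* 0.31, *Nox4* −0.83, *Nog* −0.53, *Id4* −0.69 and *Acvr2a* 0.31, in place of 1.73, 0.68, −1.79, −1.15, −1.27 and 0.57.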
